A study of Mus musculus with 8 samples.

Results

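The mouse opsin genes measured here were *Opn4*, *Opn3*, *Opn5*, *Opn1sw*, *Opn1mw*, *Rrh* and *Rgr*. They were taken by gene symbol and make up 7 of the 22873 genes in each library. Opsins are G protein-coupled receptors that carry a retinal chromophore and respond to light. *Opn4* codes for melanopsin, best known from the intrinsically photosensitive ganglion cells of the retina, and also studied for the light response of the isolated mouse iris. Melanopsin signals through Gq-class G proteins, phospholipase C beta, IP3 receptors and TRPC channels.

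Nuclei of irides, with some attached ciliary body, were profiled by single-nucleus RNA-seq in 8 libraries, each made from 5 or 6 irises pooled from wild type female albino mice 6 to 8 weeks old. The 3 untreated libraries had no eye drops. In the 3 constricted libraries the eyes had hourly 5% pilocarpine, a muscarinic agonist, for 6.5 hours in the light. In the 2 dilated libraries they had hourly 5% phenylephrine, an alpha-adrenergic agonist, with 1% cyclopentolate, a muscarinic antagonist, for 6.5 hours in the dark. Drug and lighting therefore changed together and cannot be told apart, and the p-values below measure the spread between pooled libraries. Levels are given as CPM, the UMIs (unique molecular identifiers, one per captured RNA molecule) of a gene in each 1000000 UMIs of the same nuclei, summed over each library and cell type.

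The libraries held 34357 nuclei in all, and 5189437 to 25136427 UMIs each. A barcode shared by more than 1 library was carried by 400 nuclei (1.16%), and 359 nuclei (1.04%) were called as doublets. Ciliary body nuclei, CBE and CB together, made up 2.86% to 14.9% of a library. The deposited labels of dilator muscle and iris pigment epithelium (PE) are compared here with 1 marker each, in the untreated libraries. The adrenergic receptor gene *Adra1a* was at 479 CPM in dilator muscle against 15.4 CPM in iris PE. *Zic1* was at 764 CPM in iris PE against 13.9 CPM in dilator muscle. Labels of the other cell types are not compared with their markers here. *Dct*, a pigment cell gene listed as a marker of stroma 1, was at 5220 CPM in dilator muscle.

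*Opn4* lies on the minus strand of chromosome 14, from 34590618 to 34600142 (mm10, GENCODE vM21), over a gene body of 9.525 kb with 2.961 kb of exons. The 250 bases before its start, chr14:34600143-34600392 on the minus strand (RefSeq, GRCm38.p6), are shown because *Opn4* was the one opsin gene that passed the test between conditions. They hold 54.8% G and C.

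Opn4 promoter: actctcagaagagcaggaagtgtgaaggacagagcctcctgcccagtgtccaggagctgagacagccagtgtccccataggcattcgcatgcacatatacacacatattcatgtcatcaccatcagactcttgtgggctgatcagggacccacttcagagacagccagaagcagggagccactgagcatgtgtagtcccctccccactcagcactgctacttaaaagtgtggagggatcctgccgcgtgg

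6 motifs were searched on both strands of these windows in the 6 opsin genes with a RefSeq entry, all but *Opn5*. They were the cAMP response element TGACGTCA and its core TGACG, which lies within it, the E-box CACGTG, the AP-1 motif TGANTCA, the EGR motif GCGTGGGCG, and the OTX/CRX core TAATCC. None matched in *Opn4*, so no base is in capitals, and the single match among the 6 genes was TAATCC in *Rgr*, 167 bases before the start. Over 32536 promoter windows of the same length, the 6 motifs were present in 1.56%, 17.9%, 6.04%, 6.73%, 0.541% and 6.25% in the order given.

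*Opn4* was the most abundant opsin gene in every library. Over all nuclei it was at 17.7, 20.3 and 18.2 CPM in the untreated libraries, from 92, 391 and 365 UMIs. It was at 27.5, 18.1 and 21.3 CPM in the constricted libraries, and at 11.8 and 7.56 CPM in the dilated libraries. Both dilated libraries thus lay below all 6 others, as did those of 14.0% of the genes tested over all nuclei, while the untreated and constricted ranges overlapped. Compared per length, on the scale of mean CPM per kb of gene body in the untreated libraries, *Opn4* was at 1.97 ± 0.143 (SD, n = 3) and *Opn1sw*, the short-wavelength cone opsin, was next at 0.264 ± 0.0556. The log2 ratio of these levels was 2.90 (SD 0.385). *Rrh* followed at 0.126 ± 0.0656 and *Rgr* at 0.0698 ± 0.0127, and these differed by less than the SD of *Rrh*. *Opn3* was at 0.0338 ± 0.0132, *Opn1mw* at 0.0251 ± 0.0284 and *Opn5* at 0.00971 ± 0.00273. Per kb of exon, *Opn4* was again first, at 6.34 ± 0.459, and *Opn1sw* second, at 1.22 ± 0.257. The order below *Opn1sw* differed between the 2 scales. Per kb of exon *Opn3* came next, at 0.536 ± 0.209, and *Rgr* last, at 0.205 ± 0.0372. Without division by length, mean untreated CPM was 18.8 for *Opn4*, 3.12 for *Opn1sw*, 2.29 for *Rrh* and 1.03 for *Opn3*. *Rgr* was at 0.981, *Opn1mw* at 0.586 and *Opn5* at 0.531 CPM. Whether UMI counts of these 3' libraries scale with either length was not tested.

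**Figure D1:**
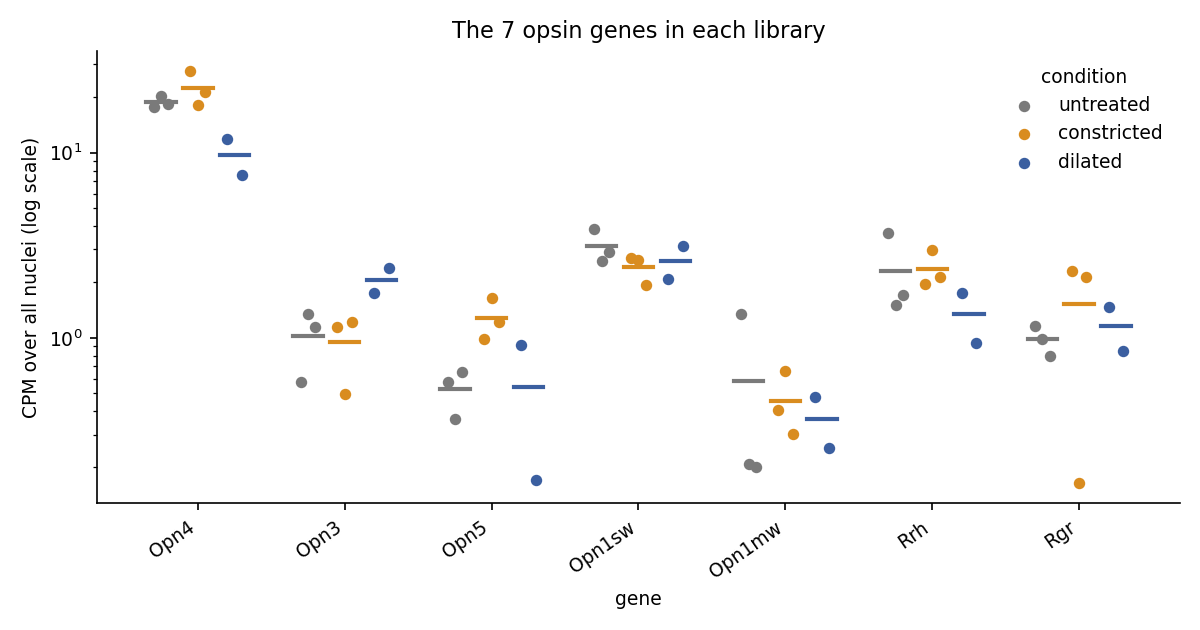
CPM over all nuclei (log axis) of the 7 opsin genes; each point is a library, each line the mean of a condition. *Opn4* lies above every other gene in each library, and its 2 dilated libraries, at 11.8 and 7.56 CPM, lie below the other 6.

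*Opn4* was found mainly in the 2 layers of the iris epithelium. In the untreated libraries, iris PE held 43.3% of the 848 *Opn4* UMIs and dilator muscle 44.5%, against 26.7% and 33.8% of all UMIs. In the constricted libraries the 2 cell types together held 89.2% of 658 *Opn4* UMIs, and in the dilated libraries 77.7% of 386, against 65.9% and 64.5% of all UMIs. Within the dilated libraries dilator muscle alone held 28.5% of the *Opn4* UMIs and 41.0% of all UMIs. Because the cell types were clustered from the same counts, differences between cell types are described here without a test.

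By level, iris PE was first in the untreated libraries, with *Opn4* at 26.7, 31.6 and 31.3 CPM. Dilator muscle followed at 21.8, 27.0 and 23.7 CPM, and in each of the 3 libraries it was below iris PE. The log2 ratio of the mean CPM in iris PE to that in dilator muscle was 0.30 (SD of the log2 ratios per library 0.0863). CBE was at 28.5, 18.9 and 22.9 CPM, from 8, 10 and 11 UMIs, and overlapped both. Sphincter 2 ranged from 8.90 to 45.8 CPM on 19 UMIs, so its place in the order is not set. Sphincter 1 was at 16.1, 7.97 and 7.22 CPM on 16 UMIs, below iris PE and dilator muscle in each library. The other 5 cell types held 40 UMIs in all: stroma 2 was at 2.50 to 3.63 CPM, and CB, stroma 1, leukocytes and endothelial cells each had at least 1 untreated library with no *Opn4* UMI. Their order does not stand out from their spread.

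**Figure D2:**
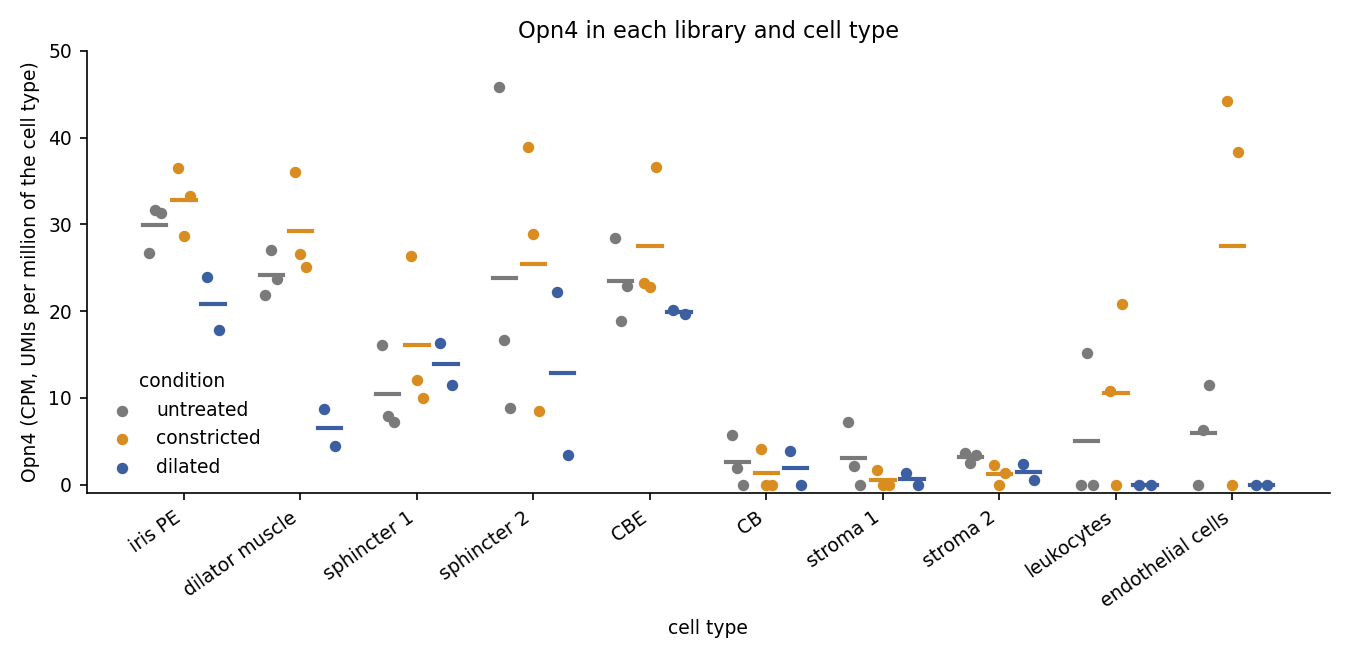
*Opn4* in CPM (linear axis) by cell type; each point is a library, each line the mean of a condition. In dilator muscle the dilated libraries, at 8.69 and 4.41 CPM, are separate from the others, at 21.8 to 36.0 CPM, while the small cell types scatter widely.

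In dilator muscle, the radial muscle that opens the pupil, *Opn4* fell in the dilated libraries. It was at 8.69 and 4.41 CPM there, from 88 and 22 UMIs, against 36.0, 26.6 and 25.1 CPM in the constricted libraries, from 186, 60 and 106 UMIs. The dilated libraries lay below all 6 others, as did those of 21.9% of the genes tested in dilator muscle. In the edgeR quasi-likelihood fit, *Opn4* in dilator muscle fell by 1.68 on the log2 scale between dilated and untreated libraries (SE 0.264, adjusted p = 0.00115), a ratio of 0.312 with a 95% interval of 0.209 to 0.464. Between dilated and constricted libraries *Opn4* fell by 1.95 (SE 0.265, adjusted p = 0.000559). A gene was called where its log2 change was beyond 0.6 and its adjusted p under 0.05. By that rule 2054 of 15395 genes (13.3%) were called in dilator muscle between dilated and untreated libraries, 945 of them lower (6.14%), and the fall of *Opn4* ranked 197 from the largest. Between dilated and constricted libraries 1610 genes were called (10.5%), 749 of them lower (4.87%). Both comparisons use the same 2 dilated libraries.

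The plain CPM ratios in dilator muscle, which lack edgeR's scaling of library sizes, were 0.271 for dilated against untreated and 0.224 for dilated against constricted. An exact two-sided permutation test of these CPM gave p = 0.2 in each, the smallest that 2 against 3 libraries allow. The libraries fall into runs of consecutive library numbers, and the dilated library was the lowest within both runs that hold all 3 conditions. That order had to follow, because both dilated libraries lay below all the others, so it is not a separate test. In the run of numbers 2 to 4, *Opn4* in dilator muscle was at 8.69 CPM in the dilated library, 21.8 in the untreated and 36.0 in the constricted one. In the run of numbers 15 to 18, it was at 4.41 CPM in the dilated library, 27.0 and 23.7 in the untreated and 25.1 in the constricted one. Fewer *Opn4* RNAs per nucleus and a change in which nuclei carry the dilator muscle label cannot be told apart by these sums. Beside it, 3 of the 15 cell type markers that could be tested in dilator muscle were called between dilated and untreated libraries, where 13.3% of all genes were. *Dct* rose by 0.76 (SE 0.153, adjusted p = 0.00547). *Nos1*, a marker of dilator muscle, fell by 0.91 (SE 0.178, adjusted p = 0.0049). *Ttn*, a muscle gene listed as a marker of sphincter 1, fell by 1.03 (SE 0.293, adjusted p = 0.0337). *Adra1a* and *Myh11*, also listed as markers of dilator muscle, were not called in this comparison. Between dilated and constricted libraries *Dct*, the endothelial gene *Cldn5* (2.12) and the smooth muscle gene *Myh11* (-0.74) were called, and *Adra1a* and *Nos1* were not. The part of these markers in the result was not tested.

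In iris PE the change did not pass the test. *Opn4* was at 23.9 and 17.8 CPM in the dilated libraries, from 138 and 52 UMIs, and at 36.5, 28.7 and 33.3 CPM in the constricted libraries. The dilated libraries again lay below all 6 others, as did those of 5.70% of the genes tested in iris PE. The log2 change of *Opn4* in iris PE was -0.49 between dilated and untreated libraries (SE 0.192, unadjusted p = 0.0239, adjusted p = 0.434) and -0.62 between dilated and constricted libraries (SE 0.196, adjusted p = 0.265). Of 14128 genes tested in iris PE, 84 (0.595%) and 95 (0.672%) were called in these comparisons. The difference between the 2 cell types was itself tested, in 1 fit with a term for each library. The log2 change in iris PE was higher than that in dilator muscle by 1.20 (SE 0.219, adjusted p = 0.00142 over 15960 genes).

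**Figure D3:**
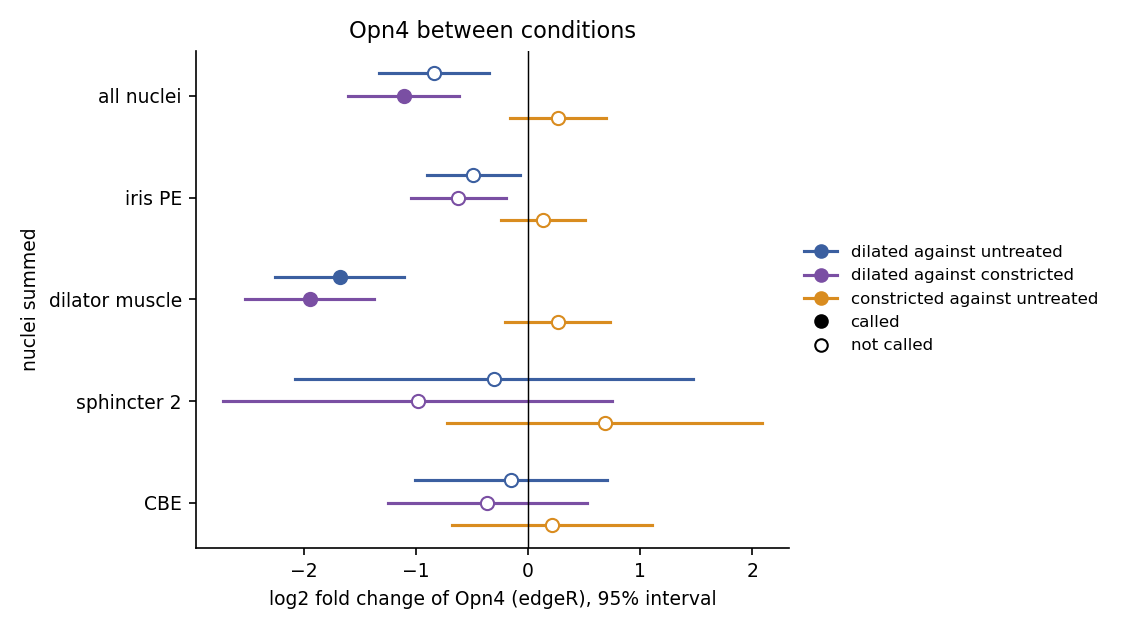
Log2 fold change of *Opn4* with its 95% interval (edgeR) for the nuclei in which it could be tested; filled points were called. The dilated libraries differ from both other conditions in dilator muscle, by -1.68 and -1.95, and no change was called in iris PE, sphincter 2 or CBE.

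Summed over all nuclei, *Opn4* changed by -1.11 between dilated and constricted libraries (SE 0.223, adjusted p = 0.0368), which passed the test, and by -0.84 between dilated and untreated libraries (SE 0.221, adjusted p = 0.0781), which did not. Of 18132 genes tested over all nuclei, 346 (1.91%) and 508 (2.80%) were called. The call between dilated and constricted libraries was lost when only those 5 libraries entered the fit (adjusted p = 0.107). It was also lost without constricted replicate 1 (adjusted p = 0.1), constricted replicate 2 (0.0574), dilated replicate 1 (0.0587) or dilated replicate 2 (0.248). With cell types given the same weights in every library, the log2 ratios of mean *Opn4* CPM were -1.20 and -1.01.

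Between constricted and untreated libraries no change of *Opn4* passed the test, with log2 changes of 0.27 over all nuclei (SE 0.193), 0.27 in dilator muscle (SE 0.216) and 0.13 in iris PE (SE 0.174), each at an adjusted p near 1. The 95% interval in dilator muscle ran from -0.20 to 0.74. A single gene was called in each of these 3 comparisons (0.00552%, 0.0065% and 0.00708% of those tested over all nuclei, in dilator muscle and in iris PE).

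The other cell types held few *Opn4* UMIs in all. In CBE it was at 20.1 and 19.7 CPM in the dilated libraries, from 42 and 8 UMIs, within the untreated range, and its log2 change against untreated libraries was -0.15 (SE 0.413, adjusted p = 1), where 0.0122% of genes tested were called. Both dilated libraries lay below the constricted range in CBE, 22.8 to 36.6 CPM. The log2 change of *Opn4* against constricted libraries was -0.36 there and was not called, where 10 of 8166 genes were. How many other genes in CBE separate in this way was not counted. The dilated replicate 1 library supplied 556 of the 675 dilated CBE nuclei. In sphincter 1 it was at 16.4 and 11.5 CPM in the dilated libraries, from 6 and 5 UMIs, too few to pass the filter on low counts, against 7.22 to 16.1 CPM in the untreated libraries. In stroma 2 it was at 2.43 and 0.584 CPM in the dilated and 2.24, 0 and 1.31 CPM in the constricted libraries. An exact two-sided permutation test of constricted against untreated libraries gave p = 0.1, the smallest possible. These values rest on 6 constricted and 23 untreated UMIs, too few to pass the filter on low counts. How many other genes separate like *Opn4* in stroma 2 was not counted. In sphincter 2 it was at 22.2 and 3.41 CPM, from 6 UMIs and 1 UMI, and its log2 change was -0.30 (SE 0.871, adjusted p = 0.927), where 2.87% of genes tested were called. No *Opn4* UMI was found in 102 leukocytes or 73 endothelial nuclei of the dilated libraries, counts of 0 that allow a share of up to 2.94% and 4.11% of nuclei with a UMI.

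The share of nuclei with at least 1 *Opn4* UMI, which counts the same UMIs in another way, was also lowest in the dilated libraries. How many other genes separate like this was not counted. In dilator muscle it was 8.19%, 9.09% and 7.63% in the untreated libraries, 10.7%, 11.7% and 7.04% in the constricted libraries, and 3.23% and 1.61% in the dilated libraries. In iris PE it was 8.48% to 9.45% in the untreated and 7.26% and 4.99% in the dilated libraries. The median depth of dilator nuclei was higher in the dilated (3758 UMIs) than in the untreated libraries (3410 UMIs). Thinned to 1000 UMIs per nucleus, the expected share in dilator muscle was 2.20% to 2.76% in the untreated libraries and 0.911% and 0.418% in the dilated libraries. Shallower nuclei were left out, 26 of 4357 untreated and 3 of 3873 dilated ones. In iris PE the thinned share was 2.47% to 3.14% in the untreated libraries and 2.45% and 1.56% in the dilated libraries, so the first of these was close to the untreated range. In stroma 2, at a median depth of 2425 UMIs, 0.757% of untreated nuclei had an *Opn4* UMI (exact 95% interval 0.48% to 1.13%, which covers counting error only), and 0.291% after thinning. The thinned share in dilator muscle of the dilated libraries together was 0.745%, and that in stroma 2 was 0.191%. Most nuclei with *Opn4* had a single UMI: of 365 such untreated dilator nuclei, 12 had 2 and none had more.

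**Figure D4:**
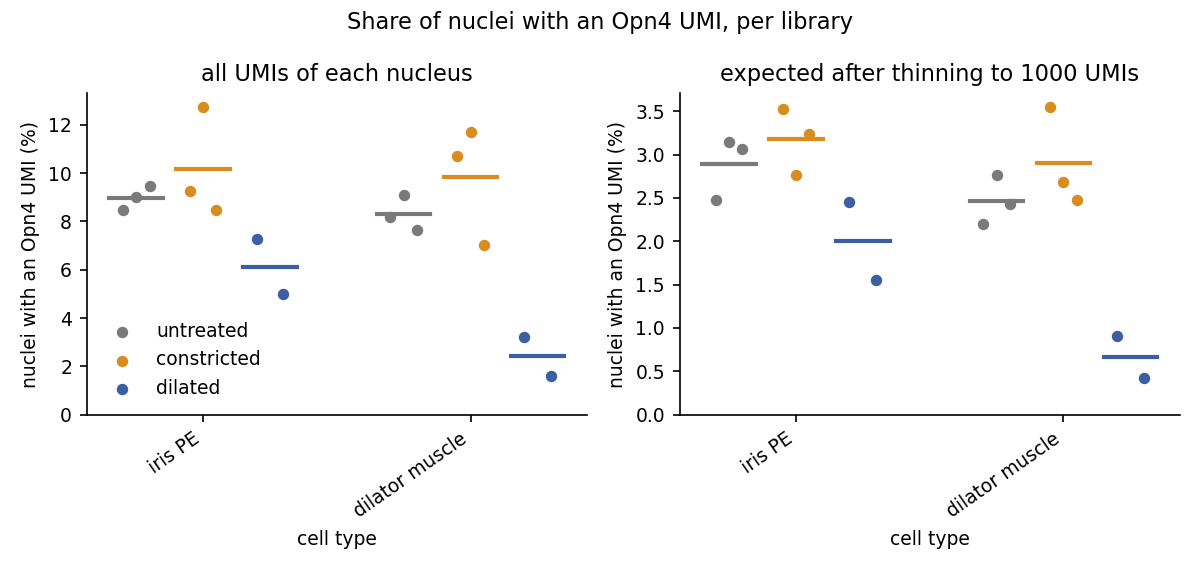
Share of nuclei with an *Opn4* UMI in iris PE and dilator muscle, from all UMIs (left) and as the expectation after thinning to 1000 UMIs (right); each point is a library, each line the mean of a condition. The 2 dilated libraries lie lowest in both cell types, at 3.23% and 1.61% of dilator nuclei before thinning. In thinned iris PE, dilated replicate 1 (2.45%) is close to untreated replicate 1 (2.47%).

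*Gm49012*, which overlaps *Opn4* on the opposite strand, followed the same pattern at a lower level. It was looked up after the change of *Opn4* was seen. In dilator muscle it had 5, 16 and 14 UMIs in the untreated libraries, 13, 9 and 8 in the constricted libraries, and 0 and 1 in the dilated libraries. The pooled CPM ratio of dilated to untreated libraries was 0.0284 (exact 95% interval from counting 0.000699 to 0.169), and edgeR called *Gm49012* lower at adjusted p = 0.00477. In iris PE its level was 1.46 CPM in the dilated and 2.23 CPM in the untreated libraries, a change that did not pass (adjusted p = 0.842). Whether the counting kept the 2 strands apart at this locus was not tested. *Calu*, opposite *Opn1sw*, was not called in either cell type, at a log2 change of 0.52 in dilator muscle.

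The other opsin genes were at low levels, and none was called. Over all nuclei 5 of them passed the filter on low counts, and *Opn1mw*, the medium-wavelength cone opsin, did not, with 3 to 12 UMIs in a library. *Opn1sw* was at 1.92 to 3.85 CPM, with its dilated libraries (2.07 and 3.14 CPM) inside the untreated and constricted range. Its log2 change between dilated and untreated libraries was -0.12 (SE 0.334, adjusted p = 0.915). Of the other 6 members, *Opn1sw* and *Rgr* could be tested in dilator muscle and *Rrh* in iris PE, and in the remaining 8 cell types none of the 6 could be tested.

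*Opn3*, encephalopsin, an opsin found widely outside the retina, had both dilated libraries above all 6 others over all nuclei, as did 5.27% of the genes tested. It was at 1.75 and 2.38 CPM over all nuclei in the dilated libraries, against 0.578, 1.35 and 1.15 CPM in the untreated and 1.14, 0.495 and 1.21 CPM in the constricted libraries. The log2 change of *Opn3* was 0.98 against untreated libraries (SE 0.45, unadjusted p = 0.0543, adjusted p = 0.323) and 1.13 against constricted libraries (SE 0.472, adjusted p = 0.334). In dilator muscle *Opn3* had 0, 2 and 4 UMIs in the untreated libraries, 0, 0 and 5 in the constricted and 11 and 10 in the dilated libraries. This was below the filter, and its exact two-sided permutation p against untreated libraries was 0.2, again the smallest possible. Against constricted libraries the ranges overlapped, with 1.18 CPM in constricted replicate 3 and 1.09 CPM in dilated replicate 1, and p was 0.4 by the same exact test. An edgeR fit with no filter gave *Opn3* in dilator muscle a log2 change of 2.01 against untreated libraries (SE 0.912, adjusted p = 0.195). Against constricted libraries that fit gave 1.89 (SE 0.942, adjusted p = 0.280), and neither passed. Leukocytes had 9 *Opn3* UMIs in the untreated libraries, 1 in the constricted and none in the dilated ones. At the depth of the dilated leukocytes a count of 0 allows up to 13.1 CPM. The untreated mean was 13.8 ± 12.1 CPM (SD, n = 3), so the count of 0 does not set the dilated level below it. In iris PE *Opn3* was at 3.29 and 3.42 CPM in the dilated libraries, from 19 and 10 UMIs. It was at 1.39 to 1.67 CPM in the untreated libraries and reached 2.46 CPM in the constricted libraries. *Opn3* was below the filter in iris PE too. Fitted by edgeR with no filter, its log2 change there was 1.21 against untreated libraries (SE 0.581, adjusted p = 0.647). Against constricted libraries it was 0.76 (adjusted p = 0.942), and neither passed. The share of genes in iris PE that separate like this was not counted.

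*Opn5*, neuropsin, a short-wavelength opsin, was at 0.363 to 0.65 CPM in the untreated and 0.98 to 1.65 CPM in the constricted libraries over all nuclei. The constricted libraries lay above the untreated ones, as did those of 4.01% of the genes tested, and the log2 change of *Opn5* was 1.25 (SE 0.565, adjusted p = 1). Its dilated libraries were at 0.915 and 0.17 CPM. Over all 8 libraries CB held 25.6% of the 82 *Opn5* UMIs against 3.95% of all UMIs. It held 1 of 23 in the untreated, 6 of 34 in the constricted and 14 of 25 in the dilated libraries. In the same order CB held 2.58%, 3.87% and 5.64% of all UMIs. The 14 UMIs all came from 1 dilated library, at 7.81 CPM in CB, and the other had 0 CPM there. The first of these held most of the 2082673 UMIs of dilated CB nuclei, so the 0 CPM of the other rests on little depth. The part of the ciliary body nuclei in the *Opn5* levels was not tested. *Rrh*, peropsin, and *Rgr*, the retinal G protein-coupled receptor that acts in chromophore recycling, are opsins of the retinal pigment epithelium. Of the 200 *Rrh* UMIs of all 8 libraries, iris PE held 25.5% and stroma 1 16%, against 25.1% and 5.80% of all UMIs. Of the 138 *Rgr* UMIs, iris PE held 24.6%. Over all nuclei *Rrh* was at 1.51 to 3.66 CPM in the untreated and 1.75 and 0.935 CPM in the dilated libraries (log2 change -0.49, SE 0.446, adjusted p = 0.674). *Rgr* was at 0.8 to 1.16 CPM in the untreated and 1.47 and 0.85 CPM in the dilated libraries (log2 change 0.43, SE 0.643, adjusted p = 0.823). Its constricted libraries ran from 0.165 to 2.29 CPM, wider than either.

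Genes that act downstream of melanopsin were counted next. The list of 17 holds the G proteins *Gnaq*, *Gna11* and *Gna14*, 4 phospholipase C beta genes, 3 IP3 receptors, 3 TRPC channels, the kinases *Grk2* and *Grk3*, and the arrestins *Arrb1* and *Arrb2*. Of these, 15 could be tested in each of dilator muscle and iris PE, and *Plcb2* and *Trpc7* could not. In dilator muscle none was called in any of the 3 comparisons, with a median log2 change between dilated and untreated libraries of 0.01 against 0.02 over all genes tested. In iris PE 1 was called, the phospholipase *Plcb1*, and the median was 0.03 against -0.00 over all genes tested. *Plcb1* was at 119, 124 and 141 CPM in the untreated, 201, 249 and 202 CPM in the constricted and 250 and 200 CPM in the dilated libraries. Its log2 change in iris PE was 0.84 against untreated libraries (SE 0.162, adjusted p = 0.0357) and 0.08 between dilated and constricted libraries. The call was lost with any 1 untreated or dilated library left out, at adjusted p of 0.0700 to 0.314. *Plcb4*, the most abundant gene of the list, was at 3369 ± 368 CPM in untreated dilator muscle (SD, n = 3) and 2231 ± 3.43 CPM in the dilated libraries (log2 change -0.41, SE 0.168, adjusted p = 0.133).

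*Cry1* and *Cry2* code for the cryptochromes, flavoproteins of the circadian clock that have also been studied as light sensors. Neither was called in dilator muscle, in iris PE or over all nuclei. *Cry2* in dilator muscle was at 46.8, 59.4 and 53.9 CPM in the untreated, 32.3, 59.4 and 66.8 CPM in the constricted and 17.4 and 33.9 CPM in the dilated libraries (log2 change against untreated -0.91, SE 0.349, adjusted p = 0.106).

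Of 13 genes that supply or handle retinoids, 10 could be tested in dilator muscle, and 1 rose and 1 fell between dilated and untreated libraries, where 13.3% of all genes tested were called. *Rbp4*, the secreted retinol carrier, was at 1.02 ± 0.282 CPM in the untreated (SD, n = 3) and 3.06 and 2.40 CPM in the dilated libraries, and rose by a log2 change of 1.68 (SE 0.494, adjusted p = 0.0388). *Stra6*, the membrane receptor for *Rbp4*, was at 18.7, 20.8 and 18.3 CPM in the untreated and 10.8 and 7.01 CPM in the dilated libraries, and changed by -0.93 (SE 0.262, adjusted p = 0.0323). The call of *Stra6* was lost without untreated replicate 2 (adjusted p = 0.136) or 3 (0.0859) and without dilated replicate 1 (0.0558) or 2 (0.203). That of *Rbp4* was lost without untreated replicate 2 (0.2) or 3 (0.119), without dilated replicate 1 (0.244) or 2 (0.148), in DESeq2 (0.161), with no filter (0.0575) and with a term for the replicate number (0.0721). *Rdh5*, a retinol dehydrogenase and the most abundant gene of this list in iris PE, was at 283 ± 9.52 CPM in untreated iris PE (SD, n = 3), with a log2 change of -0.01. None of the 6 of this list that could be tested in iris PE was called.

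**Figure D5:**
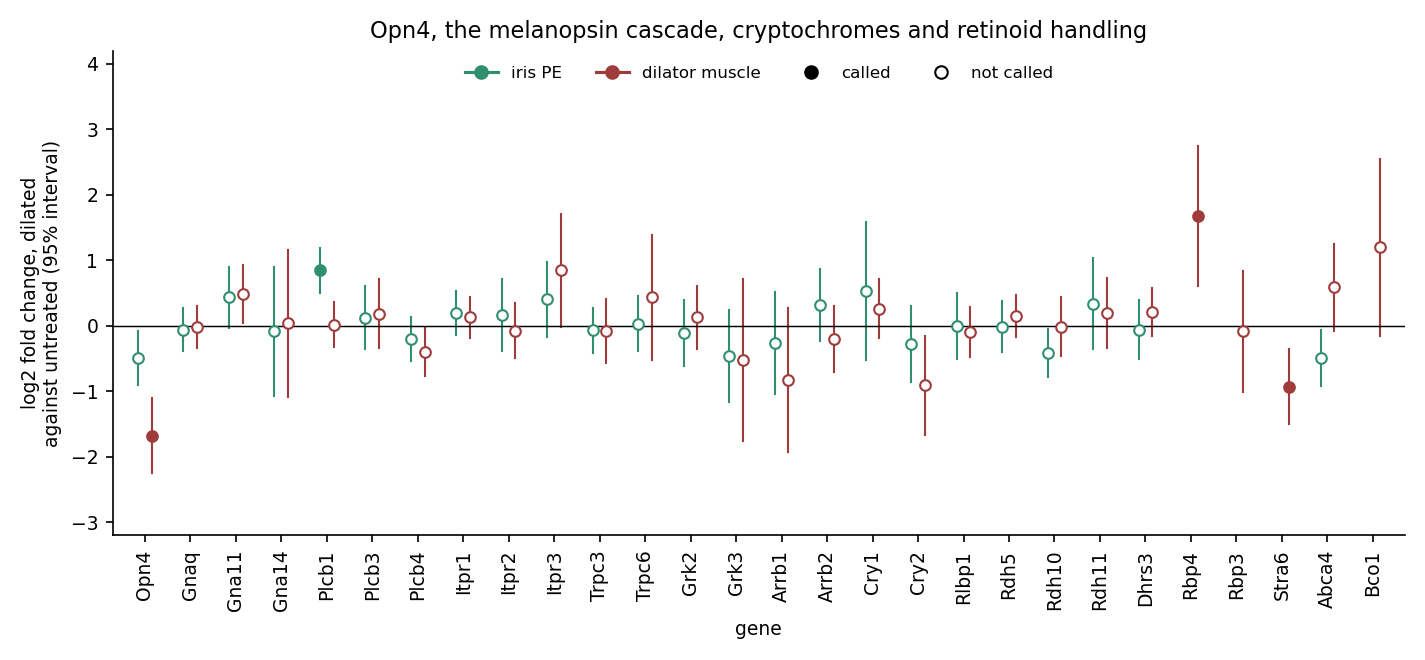
Log2 fold change, dilated against untreated libraries, with 95% intervals (edgeR), for *Opn4*, its signalling genes, the cryptochromes and the retinoid genes that could be tested; filled points were called. In dilator muscle *Opn4* (-1.68), *Stra6* (-0.93) and *Rbp4* (1.68) were called, and in iris PE only *Plcb1* (0.84).

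Markers of other photosensitive cells were also counted. Of 7 retinal ganglion cell markers 4 were measured, and together they were at 0 to 1.7 CPM over all nuclei in any library. Of 19 photoreceptor markers 17 were measured, at a summed 95.5 to 146 CPM over all nuclei, and most of that came from a few genes. In untreated dilator muscle the cone channel subunit *Cngb3* was at 108 CPM and the rod phosphodiesterase *Pde6a* at 40.8 CPM, while *Nrl* had 1 UMI and *Rcvrn* none. Of the 9 photoreceptor markers that could be tested in dilator muscle, 1 rose and 1 fell between dilated and untreated libraries, beside 13.3% of all genes tested. *Arr3*, the cone arrestin, was at 1.25, 1.13 and 0.791 CPM in the untreated and 24.0 and 8.02 CPM in the dilated libraries, and rose by a log2 change of 4.13 (SE 0.488, adjusted p = 0.000187). In sphincter 1 *Arr3* was called lower between dilated and constricted libraries, at a log2 change of -4.21 (SE 1.05, adjusted p = 0.0237), where 3.70% of genes tested were called. Between dilated and untreated libraries it was not called in sphincter 1. In dilator muscle *Arr3* was called higher against constricted libraries too, where 10.5% of genes tested were called, as it was against untreated libraries. *Cngb3* changed by -0.92 (SE 0.205, adjusted p = 0.00998), and its call was lost without dilated replicate 1 (adjusted p = 0.0892). In iris PE, *Rp1*, a gene of the photoreceptor outer segment, was called lower, at -1.10 (SE 0.22, adjusted p = 0.0451), a call lost with any 1 untreated or dilated library left out (adjusted p of 0.0582 to 0.256). Of the 6 retinal pigment epithelium markers, *Rlbp1* and *Rdh5* could be tested in each of dilator muscle and iris PE, and neither was called.

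Among 10197 genes with at least 500 untreated UMIs, the 5 whose levels over the 10 cell types were most like those of *Opn4* were *Dach2*, *Lgi2*, *1500015O10Rik*, *Dhx32* and *Kcnj3*. Likeness was measured as Pearson's r of log2(mean untreated CPM + 1) over the 10 cell types, which share the 3 libraries, and was 0.934 to 0.959. In the treated libraries r for these genes was 0.858 to 0.899. Ranked by Spearman's rho, 1 of the 5, *Dach2*, was again among the first 5. In dilator muscle 2 of the 5 were called lower between dilated and untreated libraries, where 6.14% of all genes tested were. They were *Kcnj3*, a G protein-gated potassium channel, at -1.18 (SE 0.195, adjusted p = 0.00164), and *Lgi2* at -0.79 (SE 0.239, adjusted p = 0.0436). The 5 were picked by their levels in the same untreated libraries, with a minimum of 500 UMIs that the 6.14% does not share. These 2 calls are therefore no test of a behaviour shared with *Opn4*. None of the 5 was called in iris PE.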

How the data were processed

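Nuclei from 8 libraries were profiled with 10x Genomics 3' single-nucleus RNA-seq. Per the labels' processing notes and the study's methods, the authors used Cell Ranger 3.1.0 with an mm10 index that counts introns, and Seurat for filtering and clustering. They deposited UMI counts per gene and nucleus, UMI and gene totals, mitochondrial percent and a cell type label, all used as deposited. The libraries are described as processed in several batches that are not mapped to libraries here.

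The UMIs of each library were added up by cell type and over all nuclei. edgeR 4.0.16 (R 4.3.3) was used, with TMM scaling, filterByExpr, a quasi-likelihood test and Benjamini-Hochberg adjustment over all genes tested, and all 8 libraries in 1 fit per cell type. The interaction fit used untreated and dilated libraries with a term for each library. The script was tested on simulated data. Alternatives were DESeq2 1.42.0, median-of-ratios size factors, no filter, only the conditions compared, terms for the replicate number or the run of library numbers, and leaving out each library, Scrublet doublets or ciliary body nuclei.

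Genes named were the 7 members, the called or most abundant genes of the lists, the 5 genes most like *Opn4*, and *Gm49012* and *Calu*, added after values were seen. Some genes are not reported here. The members and lists were chosen with earlier results of these data known. Lengths were taken from GENCODE vM21, where 22498 of the 22873 gene names were found. No thinned share was drawn at random: each is an exact expectation. Shares of nuclei have exact binomial 95% intervals, and a count of 0 allows up to 3 counts.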

Additional observations from a re-analysis of the deposited data

Results flagged for a closer look

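In 2 cell types where *Opn4* passed the filter on low counts, its log2 change between dilated and untreated libraries differed from that in dilator muscle. Each difference itself passed a test. The change was higher than in dilator muscle by 1.20 in iris PE and by 1.46 in CBE (SE 0.442, adjusted p = 0.0292). The tests other than that in iris PE were added after the data were seen. That in CBE rests on 29 untreated and 50 dilated *Opn4* UMIs. In sphincter 2 the difference was 1.55 (adjusted p = 0.443) and did not pass. The joint fit with sphincter 1 also gave a passing difference, 2.51 (SE 0.671, adjusted p = 0.0105). It rests on 16 untreated and 11 dilated *Opn4* UMIs in sphincter 1, where *Opn4* did not pass the filter on low counts by itself. In the other cell types below that filter no difference passed, and none is given.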

How the results depend on the processing

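In dilator muscle both *Opn4* calls against dilated libraries held in all 12 alternatives each, at log2 changes of -2.22 to -1.40 against untreated and -2.48 to -1.66 against constricted libraries. The difference between iris PE and dilator muscle held in all 8, at 1.08 to 1.55. Over all nuclei, dilated against untreated, *Opn4* was called with a term for the run of library numbers (-0.89) and by DESeq2 (-0.83). Over all nuclei, dilated against constricted, the call was lost with only the compared conditions (-1.10) and in 4 of the fits that left out a library (-1.39 to -0.90). The log2 ratio of iris PE to dilator muscle was 0.41 over all 8 libraries. Shares of nuclei with an *Opn4* UMI thinned to 500 and 2000 UMIs were 1.54% and 5.84% in untreated and 1.11% and 4.10% in dilated iris PE, and 1.29% and 4.87% in untreated and 0.378% and 1.45% in dilated dilator muscle. The cause of these moves was not tested, other than the thinning depth and the number of libraries that the alternatives themselves set.

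No other *Opn4* change called between conditions lost its call. The differences of CBE and sphincter 1 from dilator muscle were fitted at the main setting alone, so how they depend on the processing was not tested. Some changes that were not called turned direction when 1 library was left out: *Opn4* in sphincter 2, dilated against untreated (-2.03 to 0.42), *Opn5* over all nuclei, dilated against untreated (-1.38 to 0.83), *Opn1sw* over all nuclei, dilated against untreated (-0.50 to 0.25) and against constricted (-0.19 to 0.56), and, constricted against untreated over all nuclei, *Opn3* (-0.35 to 0.0897) and *Rrh* (-0.0485 to 0.49). With a term for the run of library numbers, constricted against untreated, *Opn4* in sphincter 2 (-0.34), *Opn3* (0.26) and *Rrh* (-0.12) over all nuclei also turned.

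Same-numbered libraries of different conditions did not all deviate together: over the nuclei of dilator muscle the correlations of their deviations were -0.0331 to 0.426, so the numbers were not taken to pair the libraries. The values below 0 were those of constricted replicate 2 with untreated and dilated replicate 2 (-0.0153 and -0.0331). All other pairs were positive, at 0.186 to 0.426. With a replicate block, *Opn4* in dilator muscle changed by -1.80 and -2.02, and no *Opn4* call between conditions changed.

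Counts of called genes moved widely. Dilated against untreated, they ran from 120 to 1412 over all nuclei (508 as reported), 15 to 368 in iris PE (84) and 1086 to 3138 in dilator muscle (2054). Dilated against constricted, they ran from 75 to 725 over all nuclei (346), 22 to 247 in iris PE (95) and 873 to 2302 in dilator muscle (1610). Constricted against untreated, they ran from 0 to 33 over all nuclei, 1 to 12 in iris PE and 0 to 13 in dilator muscle, against 1 each as reported. Beside these counts of 1, 815, 617 and 630 genes had an unadjusted p under 0.05, and DESeq2 called 33, 5 and 13.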
